A study of Mus musculus with 3 samples.

Results

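Among the protein-coding genes measured in mouse embryoid bodies (EBs), 185 had a lower mRNA level in vehicle-treated EBs on day 4 than on day 3, and a level near that of day 3 in EBs given C2 ceramide. The highest of these genes are Utf1, Chchd10, Slc7a3, Myo10, Col18a1, L1td1 and Pou3f1, and the group also holds Dppa2, Foxd3, Sox3, Tet2, germline genes such as Piwil2 and Meioc, and 10 zinc-finger genes that lie close together on chromosome 4. The 185 genes were chosen by their values in these same libraries: of the 21936 protein-coding genes in the table, 11681 had at least 100 counts in at least 1 library and were taken as in use, and a member had to meet 3 conditions. The treatment ratio, C2 ceramide to DMSO on day 4, was above 2, the time ratio, day 4 to day 3 in DMSO, was below 0.5, and the return ratio, C2 ceramide on day 4 to DMSO on day 3, was from 0.5 to 2. The ratios are of TPM, a level corrected for transcript length and scaled to the library. By counts scaled to the library total, 156 of the 185 members met the same conditions, but Myo10 and Piwil2 did not. Since the ratios chose the genes, their sizes are given as a description and carry no test.

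EBs are aggregates of ES cells in which the first lineages of the embryo form in culture. All 3 libraries came from the wild-type mouse ES cell line E14K, grown in hanging drops and then in suspension in serum medium without LIF. The treated EBs received 30 μM C2 ceramide, a cell-permeable analogue of natural ceramides, on days 3-4 and were collected on day 4. The controls, given the solvent DMSO by the study's account, were collected on day 4 and on day 3. When the day 3 control received DMSO is not stated. Each condition was 1 library of whole EBs from 1 line, so no replicate spread, SD or test between conditions exists, and a difference between EB cultures cannot be told apart from an effect of treatment or time. Library totals were 35290094 counts for C2 ceramide day 4, 35078820 for DMSO day 4 and 33619197 for DMSO day 3.

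In the embryo, pluripotent epiblast cells pass from a naive to a formative and then a primed state before they enter the primitive streak, where cells leave the epithelium and become mesoderm and endoderm. Cells that stay out of the streak can take a neural fate. Naive cells are held by transcription factors such as Klf4, Esrrb and Tfcp2l1, formative cells express Pou3f1, Foxd3 and Otx2, and cells in the streak express T, Mixl1 and Eomes. ES cells in EBs pass through related states, and many germline genes that are silenced in later embryos are still transcribed in pluripotent cells.

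Position was a feature that the ratios did not use. On mouse chromosome 4, between bases 145510759 and 147702553 of GRCm38, 10 of the 18 genes in use were members, which is 55.6%, against 1.58% of the 11681 genes in use. The stretch was drawn around neighbouring members under 1 Mb apart, so its ends and its share were set by the members and are a description. All 10 encode zinc-finger proteins: Zfp990, Zfp980, Zfp987, Zfp600, Zfp989, Rex2, Zfp988, Zfp978, Zfp982 and Zfp534. Of the 10, 7 had a promoter among the RefSeq promoters (GRCm38.p6), and for each of the 7 genes 1 start had the same unbroken run of 28 bases just before it, chosen as the run that they share. Zfp600 and Zfp982 have further annotated starts, whose promoters did not hold the run. The promoter stretches are printed here because they are the sequence that these members have in common. Each is 5′ to 3′ on the strand of its gene and ends at the base before the RefSeq start, and the capitals mark the shared run.
Zfp980: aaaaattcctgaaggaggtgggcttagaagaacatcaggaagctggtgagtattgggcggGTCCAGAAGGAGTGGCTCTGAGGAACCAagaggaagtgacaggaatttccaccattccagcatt
Zfp987: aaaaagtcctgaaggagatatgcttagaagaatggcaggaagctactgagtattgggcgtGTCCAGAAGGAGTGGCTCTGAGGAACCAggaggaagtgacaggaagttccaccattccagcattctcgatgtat
Zfp600: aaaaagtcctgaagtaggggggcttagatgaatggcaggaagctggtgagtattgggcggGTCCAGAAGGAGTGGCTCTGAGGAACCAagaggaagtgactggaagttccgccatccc
Rex2: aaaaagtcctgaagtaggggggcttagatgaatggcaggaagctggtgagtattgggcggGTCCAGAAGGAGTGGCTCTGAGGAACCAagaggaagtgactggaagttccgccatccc
Zfp988: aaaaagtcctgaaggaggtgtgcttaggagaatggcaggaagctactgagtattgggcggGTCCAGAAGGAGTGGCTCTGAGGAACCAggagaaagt
Zfp982: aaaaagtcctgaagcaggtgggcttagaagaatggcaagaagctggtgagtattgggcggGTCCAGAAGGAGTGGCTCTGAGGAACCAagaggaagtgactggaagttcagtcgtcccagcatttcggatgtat
Zfp534: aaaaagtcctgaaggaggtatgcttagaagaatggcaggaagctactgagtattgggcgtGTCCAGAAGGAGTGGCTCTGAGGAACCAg

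These stretches lie at chr4:145670573-145670696 (Zfp980), chr4:146097178-146097311 (Zfp987), chr4:146156709-146156826 (Zfp600), chr4:147021732-147021849 (Rex2), chr4:147305507-147305603 (Zfp988) and chr4:147492283-147492416 (Zfp982) on the plus strand, and at chr4:147702632-147702720 on the minus strand for Zfp534. The stretches of Zfp600 and Rex2 are identical as printed. Among the 21 pairs of 300-base promoters, from 23.4% to 96.2% of the 12-base words of one were found in the other. The 28-base run (GTCCAGAAGGAGTGGCTCTGAGGAACCA, searched on both strands) occurred in 8 of all 32851 RefSeq promoter entries, which is 0.0244%. The eighth is Zfp985, a gene in the same stretch of chromosome 4 that was not a member. Its level was 7.70 TPM with C2 ceramide on day 4, 4.69 TPM with DMSO on day 4 and 10.3 TPM with DMSO on day 3, a treatment ratio of 1.64 and a time ratio of 0.456. A shared run describes related copies of one gene family and is not evidence of a binding site.

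The zinc-finger members were of moderate abundance. Zfp990, the highest, had 60.3 TPM with C2 ceramide on day 4, 28.2 TPM with DMSO on day 4 and 59.0 TPM with DMSO on day 3, so the C2 ceramide value and the day 3 value nearly coincided and the DMSO day 4 value stood below both. In the same order of libraries, Zfp988 had 22.5, 9.80 and 24.3 TPM, and Zfp980, the next in abundance on day 3, had 15.2, 6.28 and 22.3 TPM. Zfp980 came to 0.684 times its day 3 level with C2 ceramide, with a log2 treatment ratio of 1.28 (95% counting interval 1.11 to 1.45) against a log2 time ratio of −1.83 (−1.98 to −1.67). Rex2 stood at 7.09 TPM with C2 ceramide, 2.80 TPM with DMSO on day 4 and 7.13 TPM on day 3. The counting intervals here and later are exact conditional intervals of the ratio of counts, and they cover counting error only, since reads from PCR copies of 1 molecule are counted separately and nothing measures the variation between cultures.

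The 8 genes of the stretch that were in use but not members had the same direction of difference in most cases. Of all 18 genes, 17 had a treatment ratio above 1 and 17 a time ratio below 1, but for the 10 members the conditions fixed the direction. Over the 18 genes the median log2 treatment ratio was 1.07 and the median log2 time ratio −1.09. The 10 members among them put both medians beyond 2-fold by construction. The 8 non-members had log2 treatment ratios from −0.03 (Zfp991) to 0.96 (Gm21411). Their log2 time ratios ran from −1.13 (Zfp985) to 0.18 (Zfp991), and 3 had a time ratio below 0.5. Gm21411 was nearest to membership, at 32.5 TPM with C2 ceramide, 16.7 TPM with DMSO on day 4 and 33.6 TPM on day 3. Zfp991 was the exception in both ratios, with 4.36, 4.44 and 3.92 TPM in the same order, although its counts of 202, 119 and 219 had the order of the other genes. Outside the stretch, 15 of the other 748 genes in use on chromosome 4 were members (2.01%), and 175 of the 11663 genes in use outside it on all chromosomes (1.50%).

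**Figure D1:**
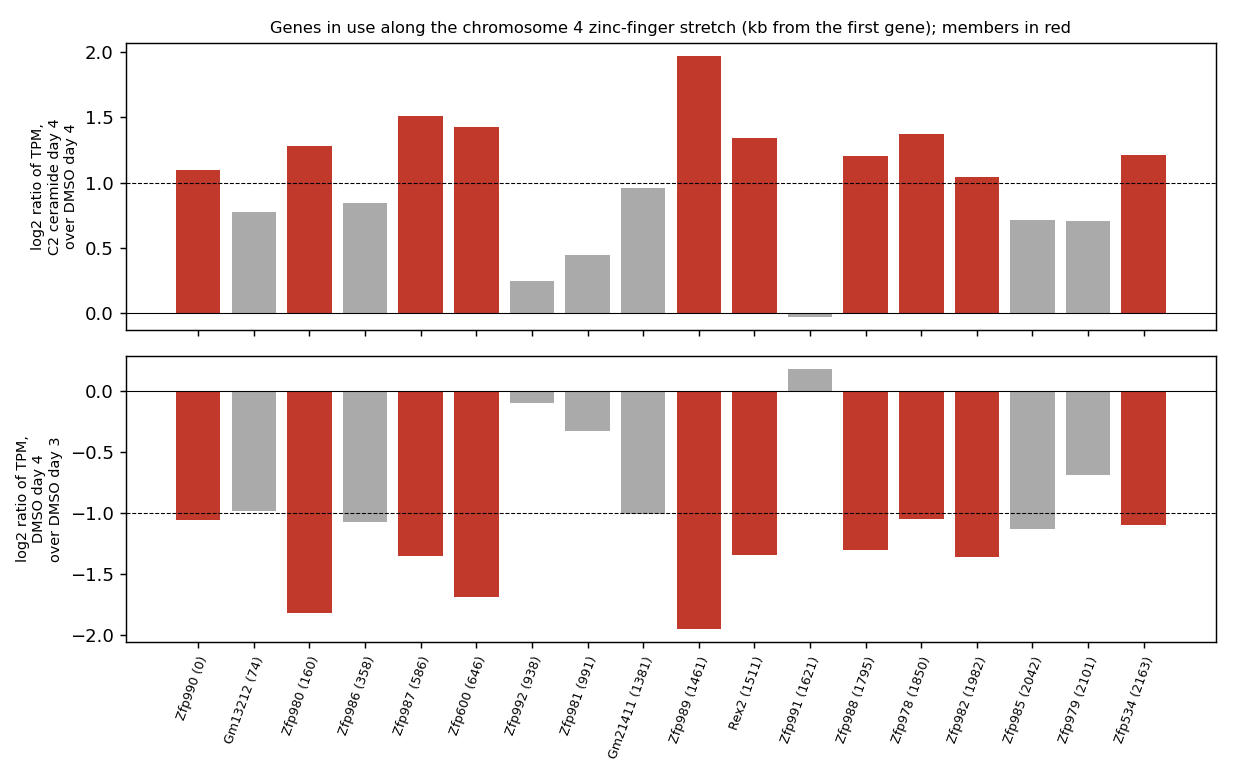
Log2 ratios of TPM for the 18 genes in use along the chromosome 4 zinc-finger stretch, in order of position, with the distance in kb from the start of the first gene beside each name. The upper bars are treatment ratios (C2 ceramide to DMSO, day 4) and the lower bars time ratios (day 4 to day 3, DMSO). Red bars are the 10 members, grey bars the other 8 genes, and dashed lines mark 2-fold. In all, 17 of 18 bars point upward above and 17 of 18 downward below, a direction that the conditions fixed for the red bars.

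Many of these genes share sequence, so their values are not 18 separate measurements. In the leading transcript of a gene, the share of 50-base stretches that also occur in a transcript of another gene was 27.2% for Zfp990, 92.1% for Zfp987, 89.3% for Rex2 and 71.3% for Zfp980, and 9 of the 10 members exceeded 10%. Reads from such stretches are divided among genes by the quantification, and a gene of this family can take reads from a neighbour. Zfp982 was the exception, with 5.6% of its stretches shared. It had 406 counts with C2 ceramide on day 4, 184 with DMSO on day 4 and 492 with DMSO on day 3, and it met all conditions. Over all 185 members, the leading transcripts of 135 shared no 50-base stretch with a transcript of another gene. In 24 the share was more than 10%, among them Dppa2, Tuba3a, Duxbl2, Sap25, Trf and Gm10324. Transcripts were compared in the sense direction only. Overlaps with a gene on the other strand, as for Gng3 and Chchd10, are therefore not in these numbers.

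Seen over the whole genome, membership was 1 outcome among several for genes that were low on DMSO day 4. The treatment ratio was above 2 for 558 genes (4.78% of those in use) and the time ratio below 0.5 for 429 (3.67%), while the return ratio lay from 0.5 to 2 for 91.3%. All 3 conditions together were met by the members, 1.58%. Of the 429, the members made up 43.1%. A further 120 (28.0%) also lay within 2-fold of day 3 with C2 ceramide but were not above 2 times the DMSO day 4 level, 98 (22.8%) stayed below 0.5 times the day 3 level with C2 ceramide, and 26 (6.06%) exceeded 2 times the day 3 level. In all, 225 of the 429 had a treatment ratio above 2, among them the members, the 26 and some of the 98, such as Prrt3 and Mfap3l. In EBs, which mix cell types, fewer cells of a type and less RNA per cell cannot be told apart.

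**Figure D2:**
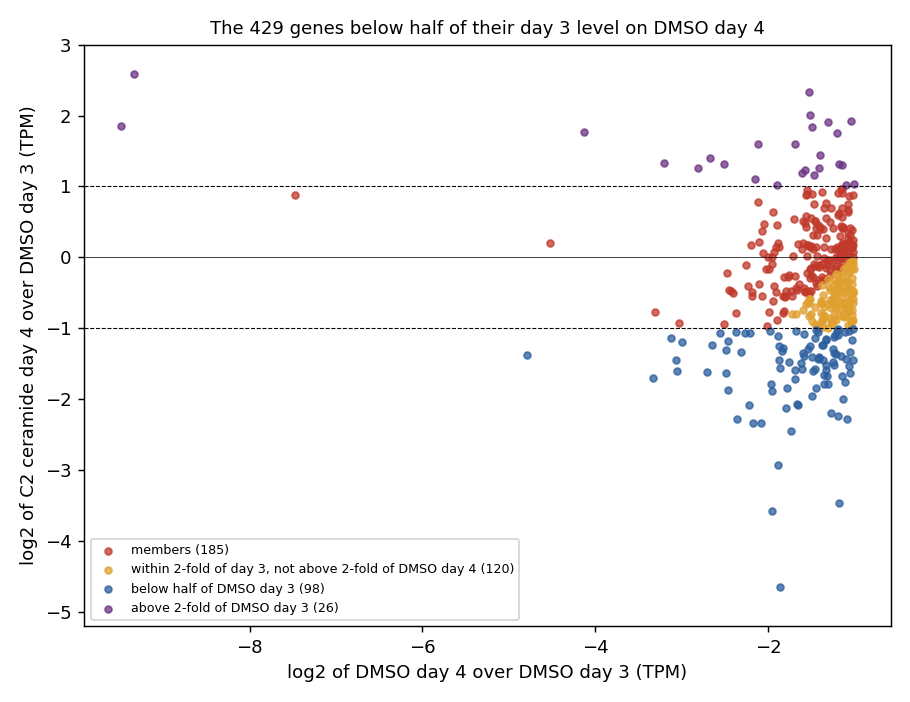
The 429 genes below 0.5 times their day 3 TPM on DMSO day 4, each a point, with the log2 time ratio (DMSO, day 4 to day 3) on the horizontal axis and the log2 return ratio (C2 ceramide day 4 to DMSO day 3) on the vertical axis. Dashed lines mark 2-fold; the 185 members (red) lie between them, with 98 genes (blue) below and 26 (purple) above, and the member farthest to the left is Gfra1.

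The members were of low abundance. Their median TPM was 4.03 with C2 ceramide on day 4, 1.44 with DMSO on day 4 and 3.89 with DMSO on day 3, whereas over all genes in use the medians were 16.5, 17.0 and 15.7 TPM. The summed TPM of the members was 3827 with C2 ceramide, 1489 with DMSO on day 4 and 4181 on day 3, and Utf1 and Chchd10 supplied much of it, since without these genes the sums were 2067, 732 and 2109 TPM. The median log2 treatment ratio was 1.51 (quartiles 1.21 and 1.89), the median log2 time ratio −1.45 (−1.77 and −1.17) and the median log2 return ratio 0.08, where the medians over all genes in use were −0.02, 0.06 and 0.05. With C2 ceramide, 108 members stood above and 77 below their day 3 level. The counting interval of the return ratio included no difference for 72 members, lay above it for 63 and below it for 50.

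Low counts limited how firmly single members could be placed. On DMSO day 4, 85 members had under 100 counts, so these were in use only through the libraries in which they were high, and 100 members had at least 100 counts in all 3 libraries. The counting interval lay beyond 2-fold in both steps for 85 members (45.9%), for 127 in the treatment ratio and for 115 in the time ratio. For all 185 members both intervals lay beyond 1, which the choice of the genes largely fixes.

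The genes just inside and just outside each limit show how sharp the choice was. Sox2, a core pluripotency and neural factor, missed the limit of the time ratio at 0.501, at 120 TPM with C2 ceramide, 51.2 TPM with DMSO on day 4 and 102 TPM on day 3, and Kcnj12 missed it at 0.507. Arhgap45 and Mllt6 were the members nearest to it, both at 0.496. At the limit of the treatment ratio, the members Vat1l and Nphs1 had 2.005 and 2.023, and the non-members Eng and Prrg4 had 1.999 and 1.988. At the lower edge of the return ratio Fam171b and Cxcl12 (0.511 and 0.520) were inside and Prrt3 and Mfap3l (0.482 and 0.479) outside, and at the upper edge Ifit2 and Rnf165 (1.96 and 1.95) were inside and Fam169b and Aoah (2.03 and 2.04) outside.

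Of the genes tied to pluripotency, 3 of the 44 in use on the list of naive and core factors were members: Utf1, Dppa2 and Tet2. This is 6.82% of the list, beside the 1.58% of all genes in use. Utf1, a chromatin-bound factor of undifferentiated ES cells, was the most abundant member on day 3, with 872 TPM with C2 ceramide on day 4, 362 TPM with DMSO on day 4 and 1266 TPM with DMSO on day 3. Its log2 treatment ratio was 1.27 (1.24 to 1.30) and its log2 time ratio −1.81 (−1.84 to −1.78), so the C2 ceramide library lay between the DMSO libraries of day 4 and day 3. Dppa2, a DNA-binding protein that acts in a pair with Dppa4, had 25.0 TPM with C2 ceramide, 9.74 TPM with DMSO on day 4 and 27.6 TPM on day 3. Tet2, an enzyme that oxidises methylated cytosine, had 2.36, 0.816 and 3.43 TPM in that order, with a different transcript leading in different libraries. Its counts were 571, 161 and 435. By counts scaled to the library total its log2 return ratio was 0.32, against −0.54 by TPM, so the sign differed.

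Most of the naive genes did not have the members' pattern. Of the 44 listed genes, 28 had a treatment ratio above 2 but 6 had a time ratio below 0.5. The list's median log2 ratios were 1.25 for treatment, −0.57 for time and 0.65 for return. Klf4, a naive factor, had 10.8 TPM with C2 ceramide, 3.33 TPM with DMSO on day 4 and 3.53 TPM on day 3, so that C2 ceramide exceeded both DMSO libraries. Zfp42 had 252, 78.2 and 120 TPM and Nr0b1 119, 18.7 and 32.2 TPM in the same order. Pou5f1, the central pluripotency factor, had 911, 628 and 949 TPM, which is the order of the members with a smaller step. Nanog had 106, 78.9 and 87.9 TPM, with C2 ceramide above both DMSO libraries. Dppa4, the partner of Dppa2, had 79.2, 41.6 and 85.5 TPM and missed membership because its treatment ratio was 1.91. With steps of 1.5-fold in place of 2-fold, 486 genes in use met the conditions (4.16%), and 15 of the 44 listed genes (34.1%) were among them, including Sox2, Dppa4, Dppa5a, Esrrb, Fgf4, Gdf3, Klf2 and Tdh.

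On the list of formative and primed epiblast genes, 5 of 35 were members (14.3%), beside 1.58% of all genes in use. They were Slc7a3, Pou3f1, Enpp3, Foxd3 and Sox3. Slc7a3, a transporter of cationic amino acids, had 237 TPM with C2 ceramide on day 4, 57.0 TPM with DMSO on day 4 and 214 TPM with DMSO on day 3. Its log2 treatment ratio was 2.06 (2.00 to 2.11) and its log2 time ratio −1.91 (−1.96 to −1.85). Pou3f1, a POU-domain factor of the late epiblast and of neural progenitors, had 73.4 TPM with C2 ceramide, 20.7 TPM with DMSO on day 4 and 97.2 TPM on day 3. The C2 ceramide library thus lay between both DMSO libraries for Pou3f1 and above both for Slc7a3.

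Enpp3, a cell-surface nucleotide pyrophosphatase, had 39.6 TPM with C2 ceramide on day 4, 13.2 TPM with DMSO on day 4 and 35.7 TPM on day 3. Foxd3, a forkhead factor required in the epiblast and neural crest, had 10.8, 5.16 and 12.1 TPM in that order. Sox3, an X-linked relative of Sox2 in epiblast and neuroectoderm, had 9.03, 2.04 and 9.72 TPM, and its log2 treatment ratio of 2.15 (1.83 to 2.47) was the largest of the list's members. Its counts were 444 with C2 ceramide, 100 with DMSO on day 4 and 468 on day 3.

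Other genes of the same list had another order of levels. Fgf5, a marker of the primed epiblast, had 86.6 TPM with C2 ceramide, 253 TPM with DMSO on day 4 and 176 TPM on day 3, and Otx2 had 100, 145 and 160 TPM. Dnmt3b, a DNA methyltransferase, was low in both day 4 libraries, with 365 TPM with C2 ceramide and 383 TPM with DMSO on day 4, against 736 TPM on day 3. Over the 35 genes the median log2 treatment ratio was −0.27 and the median log2 time ratio −0.19. Lefty1, an inhibitor of Nodal, stood close to membership, with 108, 54.8 and 127 TPM and a treatment ratio of 1.97.

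**Figure D3:**
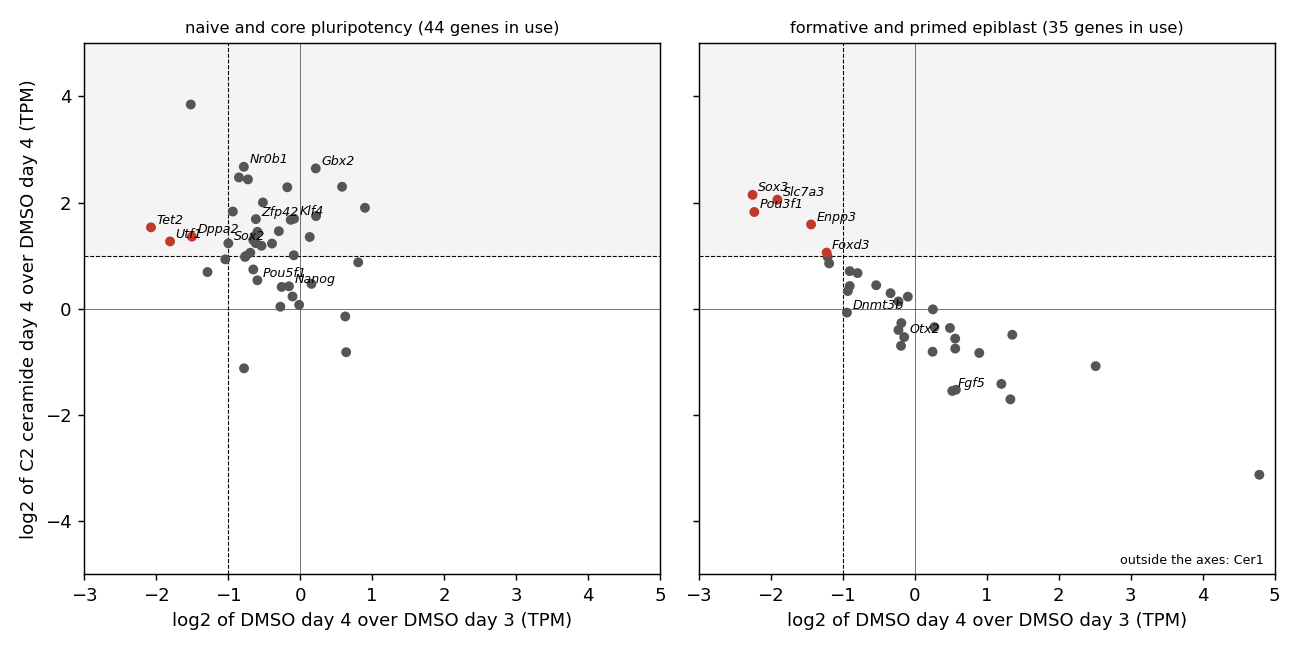
Log2 time ratio (DMSO, day 4 to day 3, horizontal) against log2 treatment ratio (C2 ceramide to DMSO, day 4, vertical) in TPM for the genes in use of the pluripotency list (left, 44 genes) and the epiblast list (right, 35 genes). Red points are members, dashed lines mark 2-fold and grey shading a ratio above 2; on the left 28 genes lie in the shaded part and 3 are members, and on the right 5 of 35 are members, with Cer1 outside the axes.

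The summed levels of the streak and mesoderm lists were highest in the DMSO day 4 library, where the members were lowest, and they are given here since whole EBs can differ in cell makeup. No gene of the primitive streak list (21 in use) or the mesoderm list (21 in use) was a member, and 1 mesoderm gene had a time ratio below 0.5. The summed TPM of the streak list was 389 with C2 ceramide on day 4, 2425 with DMSO on day 4 and 653 on day 3, and that of the mesoderm list was 141, 467 and 167. T had 9.47 TPM with C2 ceramide, 110 TPM with DMSO on day 4 and 3.39 TPM on day 3, Mixl1 had 8.17, 134 and 3.19 TPM and Mesp1 had 0.509, 83.1 and 0.035 TPM. Eomes had 9.24, 84.7 and 25.2 TPM in the same order, so unlike T, Mixl1 and Mesp1 it was lower with C2 ceramide than on day 3. None of these defining markers was at 0 in any library, but Mesp1 had only 1 count on DMSO day 3 and 15 with C2 ceramide. The median log2 treatment ratio was −3.20 over the streak list and −3.64 over the mesoderm list. Their part in the members' levels was not tested.

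Germline genes came next. Of the 18 genes in use on the meiosis list, 3 were members (16.7%), and of the 16 on the piRNA list 2 were (12.5%). None of the 19 primordial germ cell genes was, a count near the 1.58% of all genes in use. Pld6, a mitochondrial nuclease of piRNA processing, had 8.50 TPM with C2 ceramide on day 4, 3.55 TPM with DMSO on day 4 and 10.1 TPM on day 3. Piwil2, a PIWI protein that binds piRNAs, had 4.90, 0.863 and 2.53 TPM in that order, so that it was higher with C2 ceramide than in both DMSO libraries. Its counts were 523, 97 and 201, and by counts scaled to the library total (CPM) its return ratio was above 2. Tex14, a protein of intercellular bridges between germ cells, had 2.49, 0.788 and 1.87 TPM, Meioc, which sustains meiotic prophase, 2.76, 1.35 and 3.64 TPM, and Tuba3a, an alpha-tubulin of the testis, 4.83, 1.21 and 4.82 TPM.

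Several listed germline genes with well over 100 counts in all libraries were not members. Syce2, a protein of the synaptonemal complex, had 117 TPM with C2 ceramide, 114 TPM with DMSO on day 4 and 161 TPM on day 3, and Sycp3 had 96.6, 111 and 193 TPM, low in both day 4 libraries. Ddx4, a helicase of germ cells, had 6.36, 4.81 and 7.20 TPM. Over the 18 meiosis genes the median log2 treatment ratio was 0.84 and the median log2 time ratio −0.44, and over the 16 piRNA genes they were 0.46 and −0.42.

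Among the remaining members with the highest levels, Chchd10, a protein of the mitochondrial intermembrane space, had 888 TPM with C2 ceramide on day 4, 396 TPM with DMSO on day 4 and 805 TPM with DMSO on day 3. Its log2 time ratio was −1.03 (−1.07 to −0.98), so its interval reached across the limit. Col18a1, a basement membrane collagen, had 125, 54.8 and 125 TPM, so that the C2 ceramide and DMSO day 3 libraries nearly coincided. L1td1, an RNA-binding protein of pluripotent cells derived from a retrotransposon, had 81.1 TPM with C2 ceramide, 38.3 TPM with DMSO on day 4 and 114 TPM on day 3. Uchl1, a ubiquitin hydrolase abundant in neurons and germ cells, had 84.1, 23.1 and 89.5 TPM, with a log2 treatment ratio of 1.87 (1.74 to 1.99).

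Myo10, an unconventional myosin of filopodia, had 92.5 TPM with C2 ceramide, 37.1 TPM with DMSO on day 4 and 142 TPM on day 3, but its counts of 7906, 3953 and 11003 gave a treatment ratio just under 2 once scaled to the library totals. Rasgrp2, an exchange factor for Rap, had 77.1, 33.8 and 81.0 TPM. Rpp25, a subunit of RNase P, had 49.6 TPM with C2 ceramide, 13.7 TPM with DMSO on day 4 and 37.2 TPM on day 3. 1700019D03Rik had 80.1, 27.4 and 59.9 TPM, and it and Rpp25 were above their day 3 level with C2 ceramide. Abcc4, an exporter of cyclic nucleotides and drugs, had 27.9, 9.71 and 32.9 TPM, and Foxp1, a forkhead repressor, 26.2, 12.2 and 32.5 TPM.

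**Figure D4:**
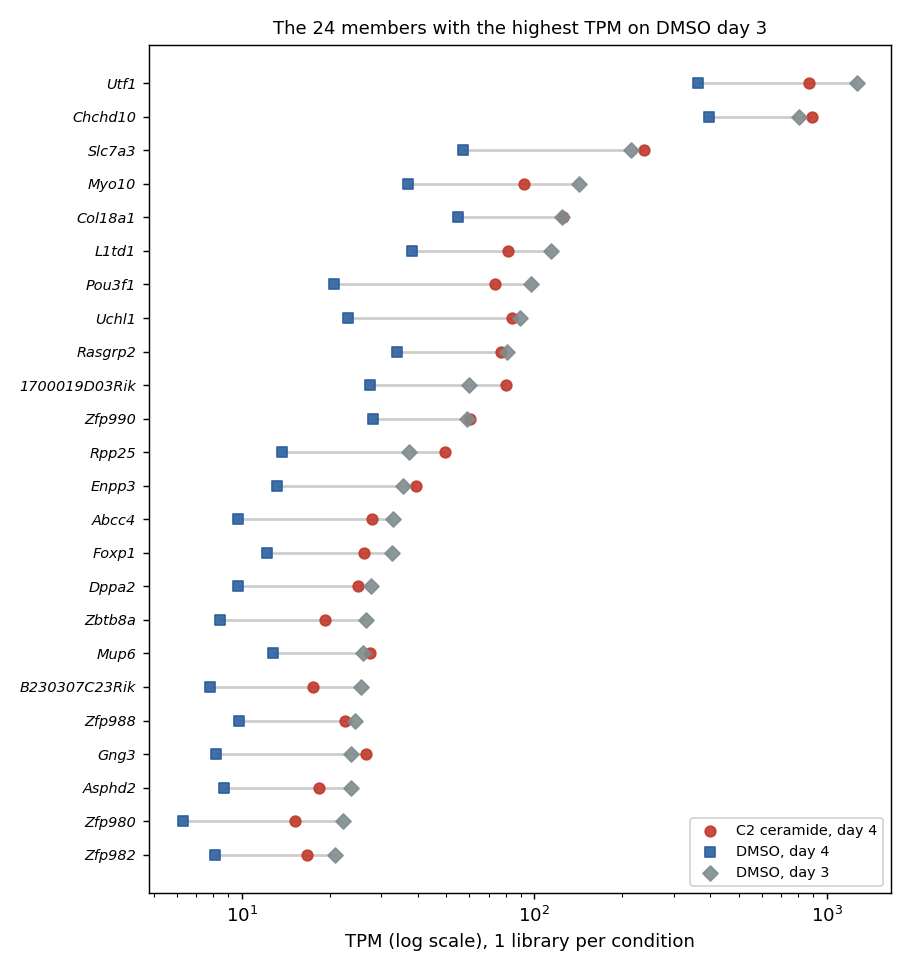
TPM on a log scale in the 3 libraries (red circles C2 ceramide day 4, blue squares DMSO day 4, grey diamonds DMSO day 3) for the 24 members with the highest TPM on DMSO day 3, ordered by that level. In every row the blue square lies to the left; for Utf1 the values are 872, 362 and 1266 TPM, and for Slc7a3 237, 57.0 and 214 TPM.

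Among members of at least 10 TPM on day 3, Slc7a3 had the largest treatment ratio, 4.16, followed by Tubb4a, a beta-tubulin of neurons, at 3.81. Tubb4a had 33.2 TPM with C2 ceramide, 8.71 TPM with DMSO on day 4 and 18.2 TPM on day 3 and so exceeded its day 3 level. Uchl1, Rpp25 and Pou3f1 followed at 3.64, 3.62 and 3.54. Foxi3, a forkhead factor of the ectoderm, had 16.6, 4.79 and 14.5 TPM, Myrf, a membrane-bound transcription factor known for myelin genes, 16.4, 4.74 and 13.2 TPM, and Bmerb1 17.1, 4.91 and 12.9 TPM. All 3 had a treatment ratio of 3.47. Gng3, a G protein gamma subunit of neurons, had 26.6 TPM with C2 ceramide, 8.14 TPM with DMSO on day 4 and 23.7 TPM on day 3. Its exons overlap those of Bscl2 on the other strand by 398 bases, and since the library kit keeps no strand, reads there cannot be told apart. Pipox, a peroxisomal oxidase of sarcosine and pipecolic acid, had 21.9, 7.26 and 20.3 TPM, and Rarg, a nuclear receptor for retinoic acid, 13.5, 4.55 and 13.3 TPM.

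Cxcl12, a chemokine that guides migrating cells, had the smallest time ratio among members of at least 10 TPM on day 3, with 7.79 TPM with C2 ceramide, 2.64 TPM with DMSO on day 4 and 15.0 TPM on day 3. Its return ratio of 0.520 was near the lower edge. Etl4 had 13.7, 5.77 and 18.5 TPM, and B230307C23Rik 17.6, 7.77 and 25.5 TPM. The counts of B230307C23Rik, 111 with C2 ceramide, 103 with DMSO on day 4 and 173 on day 3, differed by less than its TPM, and another transcript led on DMSO day 4 than in the other libraries.

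A wider set of members is known from neurons. On the list of neuronal and synaptic genes, 5 of 20 in use were members (25.0%), beside 1.58% of all genes in use. Of the 20, 9 had a treatment ratio above 2 and 7 a time ratio below 0.5. The median log2 ratios of the list were 0.56 for treatment and −0.67 for time. Syt11, a synaptotagmin of vesicle traffic, had 14.5 TPM with C2 ceramide on day 4, 3.37 TPM with DMSO on day 4 and 7.69 TPM on day 3. Nefh, the heavy neurofilament, had 2.87, 0.872 and 2.84 TPM. Nrxn2, a presynaptic adhesion protein, had 2.38, 0.704 and 1.91 TPM and Rims1, a scaffold of the active zone, 1.62, 0.299 and 0.883 TPM. By protein-coding transcripts alone the log2 time ratio of Nrxn2 was 0.43, with the opposite sign.

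By the gene ontology columns of the table, 7 of the 54 genes in use annotated to chemical synaptic transmission were members, among them Apba2, Cacnb2, Myo5a and Nrxn2. The median over all 54 was 0.15 for the log2 treatment ratio and −0.18 for the log2 time ratio. Neuronal cell body held 16 members of 346 genes (4.62%), axon 12 of 285 (4.21%) and dendrite 14 of 342 (4.09%), with many genes in common. Lower shares were those of nervous system development, 8 of 263 (3.04%), synapse, 14 of 471 (2.97%), and glutamatergic synapse, 7 of 311 (2.25%). Ntrk2, a receptor for brain-derived neurotrophic factor, had 3.40 TPM with C2 ceramide, 0.797 TPM with DMSO on day 4 and 2.94 TPM on day 3, and En2, a homeobox factor of the midbrain, had 1.54, 0.324 and 1.80 TPM in that order. En2 and Sox3 were 2 of the 16 genes in use on the neuroectoderm list, whose median log2 ratios were −0.45 for treatment and 0.48 for time. Cacnb2, a calcium channel subunit, was the only member of the 20 voltage-gated channel genes in use and had 1.29, 0.261 and 0.679 TPM.

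The annotation term cell adhesion held 11 members of 180 genes in use (6.11%), beside 1.58% of all genes in use. The 11 were Cd34, Cdh22, Col18a1, Epha8, Itgb7, Lama3, Ncan, Nphs1, Nrxn2, Spon1 and Thbs4. Over the 180 genes the median log2 treatment ratio was 0.06 and the median log2 time ratio 0.16, so most genes of the term did not have the members' pattern. Spon1, an extracellular protein of the floor plate, had 4.79 TPM with C2 ceramide, 0.644 TPM with DMSO on day 4 and 2.79 TPM on day 3, a log2 treatment ratio of 2.89 (2.61 to 3.19). Cd34, a sialomucin of blood and endothelial progenitors, had 2.25, 0.562 and 2.14 TPM. The semaphorins Sema3e and Sema3c, which guide axons and vessels, had 7.57 and 2.68 TPM with C2 ceramide, 3.12 and 1.09 TPM with DMSO on day 4 and 6.44 and 2.34 TPM on day 3. They were 2 of the 37 axon guidance genes in use (5.41%), a list whose medians had the opposite signs, at −0.72 for the log2 treatment ratio and 0.87 for the log2 time ratio. Itgb7, an integrin subunit of lymphocytes, had 6.41, 2.62 and 6.80 TPM.

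Gfra1, the GDNF receptor subunit, had the largest treatment ratio of all members, on 1 count in the DMSO day 4 library. Its counts were 249 with C2 ceramide on day 4, 1 with DMSO on day 4 and 186 with DMSO on day 3, and its log2 treatment ratio was 8.36 with a counting interval of 5.87 to 13.67. Tent5c, a poly(A) polymerase, followed with 75, 6 and 134 counts and a log2 treatment ratio of 4.74 (3.55 to 6.23). These were the only members with under 10 counts in a library and the only ones with a treatment ratio above 8. By TPM, a 4-fold limit on both the treatment and the time ratio was met by 12 members: Gfra1, Tent5c, Cul9, Alox5ap, Susd2, Ebf1, Slc2a6, Sez6, En2, Sox3, P2ry2 and Spon1. By CPM, the log2 treatment ratios of Cul9 (1.58), Alox5ap (1.63) and P2ry2 (1.88) and the log2 time ratio of Susd2 (−1.93) fell short of it. Low counts limit this list: on DMSO day 4 Slc2a6 had 23, Alox5ap 25, En2 30, Susd2 34, Cul9 and Sez6 35 and Ebf1 40. P2ry2 had 69, Sox3 100 and Spon1 115.

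For annotation to transcription, the share of members differed between terms. DNA-binding transcription factor activity was given for 18 members of 451 genes in use (3.99%), beside 1.58% of all genes in use. Regulation of DNA-templated transcription was given for 34 of 872 (3.90%), 10 of them the chromosome 4 zinc-finger genes. Other terms lay near 1.58%: DNA binding held 21 members of 1076 (1.95%), and negative regulation of transcription by RNA polymerase II 7 of 598 (1.17%). Over the 451 genes the median log2 treatment ratio was −0.01 and the median log2 time ratio 0.10. Sall2, a zinc-finger factor related to Sall4, had 8.85 TPM with C2 ceramide, 3.46 TPM with DMSO on day 4 and 7.97 TPM on day 3, and Zbtb8a had 19.3, 8.42 and 26.6 TPM. Kat2b, a histone acetyltransferase, had 7.08, 1.96 and 7.93 TPM. Ebf1, a factor of B cells and mesenchyme, had 2.19, 0.403 and 1.69 TPM, and Zfp462, a chromatin-bound zinc-finger protein, 2.27, 0.609 and 3.21 TPM. The log2 return ratio of Zfp462 was −0.50 by TPM but 0.29 by CPM. Gata2, a factor of blood progenitors and trophoblast, met the conditions by TPM with 1.49, 0.442 and 0.934 TPM, but its counts of 146, 45 and 32 gave a log2 time ratio of 0.43 by CPM, with the opposite sign.

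The metabolic lists held 1 member or none, which is near the 1.58% of all genes in use for lists of this size. Ugt8a, which adds galactose to ceramide, was the only member of the 37 sphingolipid genes in use (2.70%), with 4.03 TPM with C2 ceramide on day 4, 1.87 TPM with DMSO on day 4 and 4.54 TPM on day 3. Its log2 treatment ratio was 1.11 (0.84 to 1.38). Acacb, an acetyl-CoA carboxylase at the mitochondrion, was the only member of the 35 sterol and fatty acid genes (2.86%), with 3.83, 1.55 and 3.53 TPM, and was led by transcripts with a retained intron in all 3 libraries. Slc7a3 was the only member of the 25 amino acid transporters (4.00%), although 5 of them had a treatment ratio above 2.

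No member was found among the genes in use of the lists for definitive endoderm (12), visceral and primitive endoderm (14), serine, proline and one-carbon metabolism (34), ATF4 and the integrated stress response (22), ER chaperones (21), glycolysis and hypoxia (32), glycerophospholipid and choline metabolism (38), imprinted genes (31), FGF and ERK targets (26), LIF and STAT3 (18), Wnt (45), Nodal, TGF-beta and BMP (33), metallothioneins and oxidative stress (20), p53 and apoptosis (30) or the cell cycle (27). In other lists 1 or 2 genes were members: Gata2 of 12 trophoblast genes, Cd34 and Gata2 of 9 genes of blood and endothelium, Tet2 of 18 DNA methylation genes, Rarg of 13 retinoic acid genes and Itgb7 of 43 genes of adhesion and junctions. Over all genes in use the share of members was 1.58%. The median log2 treatment and time ratios had the opposite signs to the members in the trophoblast list (−0.51 and 1.39), the blood and endothelium list (−1.14 and 1.14) and the retinoic acid list (−0.46 and 0.73). In the ATF4 list, 12 of 22 genes had a treatment ratio above 2 but none had a time ratio below 0.5. The lists of the 2-cell-like state and of replication-dependent histones had 1 gene in use each, and it was not a member.

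Outside the zinc-finger stretch, members lay on all autosomes and the X chromosome, from 0.602% of the genes in use on chromosome 9 to 2.68% on chromosome 19. In 9 cases a member's next gene in use was also a member, of which 4 are in the zinc-finger stretch. Kirrel2 and Nphs1, which encode related junction proteins of the kidney filter, lie head to head on chromosome 7 with 625 bases between their starts. Nphs1 had 5.92 TPM with C2 ceramide, 2.93 TPM with DMSO on day 4 and 8.43 TPM on day 3, and Kirrel2 had 3.37, 0.945 and 2.49 TPM. Dppa2 and Morc1, a germline ATPase that silences transposons, lie next to each other on chromosome 16, and Morc1 had 7.74, 2.63 and 5.77 TPM. The other pairs were Itgb7 with Rarg, Rasgrp2 with Nrxn2, and Pipox with Sez6.

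The values by TPM and by counts were compared because a gene's TPM can also move when another of its transcripts takes the lead. By CPM, 156 of the 185 members (84.3%) met the same conditions. A single transcript led in all 3 libraries for 133 members, and 118 of them also met the conditions both by CPM and by protein-coding transcripts alone. Among the members named here, the conditions were not met by counts for Myo10, B230307C23Rik, Cxcl12, Piwil2, Rims1, Sema3c, Acacb, Itgb7, Gata2, Mllt6 and Duxbl2. Chchd10 overlaps Mmp11 on the other strand by 155 bases of exon, and in all 8 members share at least 50 bases of exon with another gene of at least 100 counts.

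**Figure D5:**
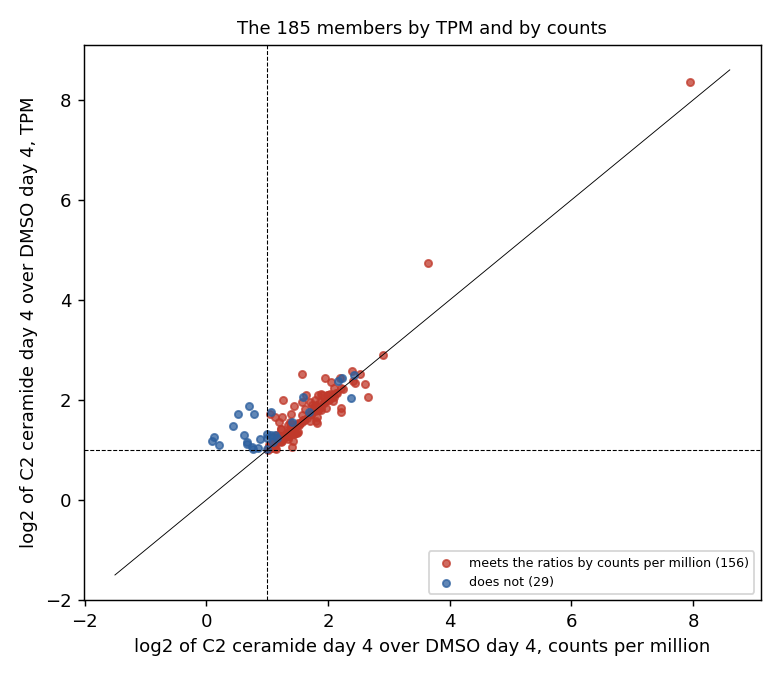
Log2 treatment ratio (C2 ceramide to DMSO, day 4) of the 185 members, by CPM (horizontal) and by TPM (vertical), with the diagonal of equal values and dashed lines at 2-fold. The 156 red members met all conditions by CPM as well; the 29 blue members did not, and the 2 points at the upper right are Tent5c and Gfra1.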

How the data were processed

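RNA of 3 libraries, 1 per condition, was sequenced by the authors from SMART-Seq v4 cDNA and quantified with DRAGEN (GRCm38, GENCODE M25). The authors deposited TPM values, corrected for transcript length and library size, and estimated counts, which need not be whole, for 55487 genes and for their transcripts.

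A TPM of 0 was set to 0.001. Genes were in use with 100 counts or more in at least 1 library. Intervals are exact conditional Clopper-Pearson 95% intervals of rounded counts, shifted to the TPM ratio. With 1 library per condition no test was run. The conditions and intervals were tried on simulated counts in which a set of genes was lowered 4-fold in 1 library, with counting error only. Variation between cultures, changes of leading transcript and ratios near the limits were not simulated, so the trial does not cover them. Members, gene lists and tests were chosen with earlier results of these data known.

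Genes were named by a rule: the 15 members highest on DMSO day 3, the 15 with the largest treatment ratio and the 10 with the smallest time ratio (both at 10 TPM or more on day 3), up to 5 members of each of 36 lists, the genes nearest each limit, and listed pluripotency, epiblast and germline genes with 500 counts or more as a contrast. A few members are not reported here by name. Other genes named here, the zinc-finger stretch (members under 1 Mb apart) and its promoter run were chosen after their values were seen, as were the order of roles and the annotation terms (at least 10 genes in use and 5 members).

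Promoters were matched for 140 of 185 members (75.7%), under 80%, so a comparison of motifs or base composition over the members is void and not reported. For Zfp982 and Zfp600, with several starts, the start most like that of Zfp980 was used. Shared stretches and exon overlaps come from GENCODE M21 of the same build. Alternatives were other added values (0.1 and 1 TPM), count filters, fold limits, CPM, TMM factors (edgeR 4.0.16) and DESeq2 1.42.0 size factors on rounded counts, all gene types and protein-coding transcripts. Python 3.11.15, pandas 2.3.3, SciPy 1.17.1 and R 4.3.3 were used.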

Additional observations from a re-analysis of the deposited data

How the results depend on the processing

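No paired analysis was possible because each condition has 1 library. No library could be left out, and all values are those of single EB cultures. The number of members, 185 as reported, was 69 with 1 TPM added, 428 with a minimum of 10 counts, 530 with no count filter, 100 with 100 counts in every library, 62 with 500 counts in at least 1 library, 486 with 1.5-fold steps, 12 with 4-fold steps and 85 where both counting intervals lay beyond 2-fold. In the same order of settings, the genes below 0.5 on DMSO day 4 over DMSO day 3 (429 as reported, or below the limit of the setting) numbered 190, 1214, 1817, 222, 139, 1018, 54 and 232, and the genes above 2 with C2 ceramide over DMSO on day 4 (558 as reported) numbered 320, 1363, 1959, 317, 234, 1246, 114 and 371. The members' share of the day 4 decreases, 43.1%, was 22.2% with 4-fold steps. Their median log2 time ratio, −1.45, was −0.98 with 1 TPM added. These settings keep fewer or more genes by construction. By CPM, TMM and DESeq2 size factors there were 191, 200 and 199 members, of which 156, 159 and 159 were among the 185. The treatment and time ratios of the 56 members named by the rule were compared under the added values, CPM, TMM, DESeq2 size factors and protein-coding transcripts only. They kept a step above 2-fold in 598 of 672 values, kept the direction below 2-fold in 70 and turned in 4. The 4 were the log2 time ratios of Gata2, at 0.43 by CPM, 0.40 by TMM and 0.40 by DESeq2 size factors, and of Nrxn2, at 0.43 by protein-coding transcripts, and the cause was not tested. Scaling moved the median of all genes by at most 0.06 on the log2 scale. The numbers of members per list were less stable. With 1 TPM added, CPM, a minimum of 10 counts or 1.5-fold steps, 46 of 144 such numbers moved. A number moved if it changed by more than 1.5-fold or between none and some.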

Other observations

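Genes of other types were outside the choice of members, and 13 of the 715 with at least 100 counts in a library met the same ratios (1.82%). Platr10, a long noncoding RNA tied by name to pluripotent cells, was the highest on day 3, with 46.6 TPM with C2 ceramide on day 4, 16.8 TPM with DMSO on day 4 and 63.0 TPM with DMSO on day 3. Platr22 had 5.50, 2.07 and 5.71 TPM in that order and Platr21 had 7.10, 3.06 and 6.70 TPM. Gm13147, a transcribed pseudogene inside the chromosome 4 zinc-finger stretch, had 11.1 TPM with C2 ceramide, 5.55 TPM with DMSO on day 4 and 14.2 TPM on day 3, and Gm8935, a pseudogene on chromosome 3 whose transcript shares 50-base stretches with several zinc-finger members, had 8.98, 3.31 and 8.41 TPM. Gm9788 shares stretches with Dppa2 and had 111, 41 and 124 counts, so its reads and those of Dppa2 cannot be separated with certainty. These genes were named after their values were seen.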
